A study of Mus musculus with 4 samples.

Results

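The 9 genes described here encode the toxins of cytotoxic granules, the proteins that act beside those toxins in the granule or protect the cell that carries them, and the surface receptor Klrg1. They were taken by symbol from a table of 47729 Ensembl genes (Gzma, Gzmb, Prf1, Nkg7, Cst7, Ctsw, Serpinb9, Serpinb6b and Klrg1), each matched to 1 row, and all 9 were among the 12536 genes that passed a filter on low counts. RNA was sequenced from 4 libraries of regulatory T (Treg) cells of C57BL/6 mice, 2 labelled Tfrc +/+ Foxp3 YFP-Cre/+ (WT) and 2 labelled Tfrc fl/fl Foxp3 YFP-Cre/+ (TfR1-deficient), each genotype as replicates 1 and 2. Both genotypes carry the Foxp3 YFP-Cre allele, in which the Foxp3 locus drives Cre and a YFP reporter, so the WT cells also express Cre. Foxp3 is X-linked, so in a heterozygous female only the Treg cells with the YFP-Cre allele on the active X chromosome make Cre, and the YFP+ cells were sorted. The labels name the spleen alone as the tissue and a legend of the study also lymph nodes, and the sorted cells are given as CD25+YFP+ in one place and as YFP+CD4+ in another. The general age range for mice other than the conditional knockout males was 6 to 8 weeks. A legend of the study calls the replicates biological. Whether cells of several mice were pooled is not given in the sources used here, so their spread may not be that between single mice.

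Cytotoxic lymphocytes and some effector Treg cells kill by releasing granules in which perforin opens a path for granzymes into the target cell. Granzymes are serine proteases that are stored with cathepsins and kept in check by inhibitors, and serpins in the cytosol inactivate granzymes that leak from the granule. Klrg1 is a lectin-like inhibitory receptor of cadherins that marks terminally differentiated effector T cells, including a differentiated subset of Treg cells.

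In the RefSeq annotation of GRCm38.p6 the members lie on 7 chromosomes. Only the serpins Serpinb6b (chromosome 13, 32956811 to 32979067) and Serpinb9 (chromosome 13, 32997061 to 33017955) are neighbours, 17993 bases apart, and Gzma lies elsewhere on that chromosome (113093824 to 113100981). RefSeq promoter sequence was found for 7 of the 9 members, all but Ctsw and Klrg1. The sequence before the start site is shown for the member with the lowest p-value (Cst7), for the 2 granzymes, whose fold changes were opposite in sign, and for Nkg7. Each is the 250 bases upstream of the annotated start, 5′ to 3′ on the strand of the gene, with the RUNX core (TGTGGT on either strand) and the AP-1 element (TGANTCA) in capitals.
Cst7, chr2:150570165-150570414, plus strand: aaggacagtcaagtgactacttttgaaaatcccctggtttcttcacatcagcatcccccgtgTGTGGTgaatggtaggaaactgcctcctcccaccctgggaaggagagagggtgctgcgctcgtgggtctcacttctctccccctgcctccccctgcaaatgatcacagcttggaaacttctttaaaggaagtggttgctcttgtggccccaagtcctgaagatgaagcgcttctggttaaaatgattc
Gzmb, chr14:56262335-56262584, minus strand: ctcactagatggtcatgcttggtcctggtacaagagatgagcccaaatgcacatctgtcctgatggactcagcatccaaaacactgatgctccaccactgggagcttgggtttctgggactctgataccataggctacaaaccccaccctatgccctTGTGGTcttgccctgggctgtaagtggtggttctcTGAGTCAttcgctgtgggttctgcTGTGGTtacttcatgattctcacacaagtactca
Gzma, chr13:113100982-113101231, minus strand: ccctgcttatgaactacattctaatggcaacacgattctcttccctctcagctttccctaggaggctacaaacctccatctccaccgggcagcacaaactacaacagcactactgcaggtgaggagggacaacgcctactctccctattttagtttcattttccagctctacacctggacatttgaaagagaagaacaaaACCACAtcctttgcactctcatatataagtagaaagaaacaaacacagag
Nkg7, chr7:43436888-43437137, plus strand: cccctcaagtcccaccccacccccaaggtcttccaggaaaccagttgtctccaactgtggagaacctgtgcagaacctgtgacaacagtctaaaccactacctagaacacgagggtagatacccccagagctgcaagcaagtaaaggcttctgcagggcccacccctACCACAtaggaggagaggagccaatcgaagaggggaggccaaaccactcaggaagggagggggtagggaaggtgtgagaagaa
The RUNX core was present in 5 of the 7 member promoters (these 4 and Prf1) and in 14.0% of the 32851 promoters of the same length. Its matches ended 183 bases before the start of Cst7, 88 and 29 bases before that of Gzmb, 45 bases before that of Gzma and 78 bases before that of Nkg7, and no match was found in the windows of Serpinb9 and Serpinb6b. The windows of Serpinb9 (33004291 to 33004540) and Serpinb6b (32965011 to 32965260) lie inside the gene spans given above. They precede an annotated start within the gene, and the sequence before the first base of the span was not searched. AP-1 was matched in 1 member promoter, Gzmb, 52 bases before the start, against 6.75% of all promoters. The T-box element GGTGTGA was matched in Nkg7 alone, 7 bases before the start and shown in lower case above, against 3.33% of all promoters. The cyclic AMP element TGACGTCA (1.55% of all promoters) and the hypoxia response core ACGTG (16.6%) were matched in 0 of the 7. These are matches of letters, and binding was not measured.

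The libraries held 10841939 to 17278448 counts. Tfrc, the gene that encodes TfR1, had 50.8 and 54.1 CPM (library-scaled counts) in WT against 56.1 and 48.3 CPM under the TfR1-deficient label, so its gene-wide count did not tell the labels apart and every direction below rests on them. All 9 Treg markers were detected, with Foxp3 at 194 and 130 CPM in WT and at 122 and 114 CPM in the TfR1-deficient libraries. Of these markers 8 had a negative log2 fold change, as had 6135 of the 12536 tested genes, and the median was -0.26. With no overlap 5 were lower, against 18.9% of tested genes. At the unadjusted threshold used below 1 (Ctla4) was lower, against 2.48% of tested genes. WT 1 and TfR1-deficient 2 stood apart from the rest. The summed level of 20 macrophage markers was 1255 CPM in WT 1, 104 CPM in WT 2, 74.2 CPM in TfR1-deficient 1 and 3721 CPM in TfR1-deficient 2. Both were also high in 10 proliferation genes, at 1739 and 1698 CPM against 815 CPM in WT 2 and 874 CPM in TfR1-deficient 1. Results are therefore also given for WT 1 with TfR1-deficient 2, and for WT 2 with TfR1-deficient 1.

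Of the 9 members, Cst7 and Nkg7 had lower levels under the TfR1-deficient label, by more than their replicates differed. Neither passed the adjusted threshold, and Nkg7 did not pass the unadjusted one either. Gzmb was also lower, but not by more than its replicates differed, and it passed neither threshold. The remaining genes differed little or varied as much within a genotype as between genotypes. The edgeR quasi-likelihood test with Benjamini-Hochberg adjustment called 0 members and 0% of the 12536 genes at an adjusted p under 0.05, with 655 genes at an unadjusted p under 0.05 and 39 genes called by DESeq2. At an unadjusted p under 0.05 and a log2 fold change of at least 0.5 in size, 1 of the 9 members (Cst7) was lower, against 2.48% of all tested genes, and 0 were higher, against 1.6%. In 5 of 9 members (Cst7, Gzmb, Nkg7, Prf1 and Serpinb9) both TfR1-deficient libraries lay below both WT libraries, as in 18.9% of tested genes, and in 1 (Gzma) both lay above, as in 16%. The log2 fold change was negative for 8 of 9 members with a median of -0.29, while the median of all tested genes was 0.01, and the negative sign of Serpinb6b turned under other scalings. Leaving Cst7 aside, the median of the other 8 was -0.23, and it was -0.17 without Cst7 and Gzmb. In bulk RNA, fewer cells that express a gene and less of its RNA per cell cannot be told apart.

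**Figure D1:**
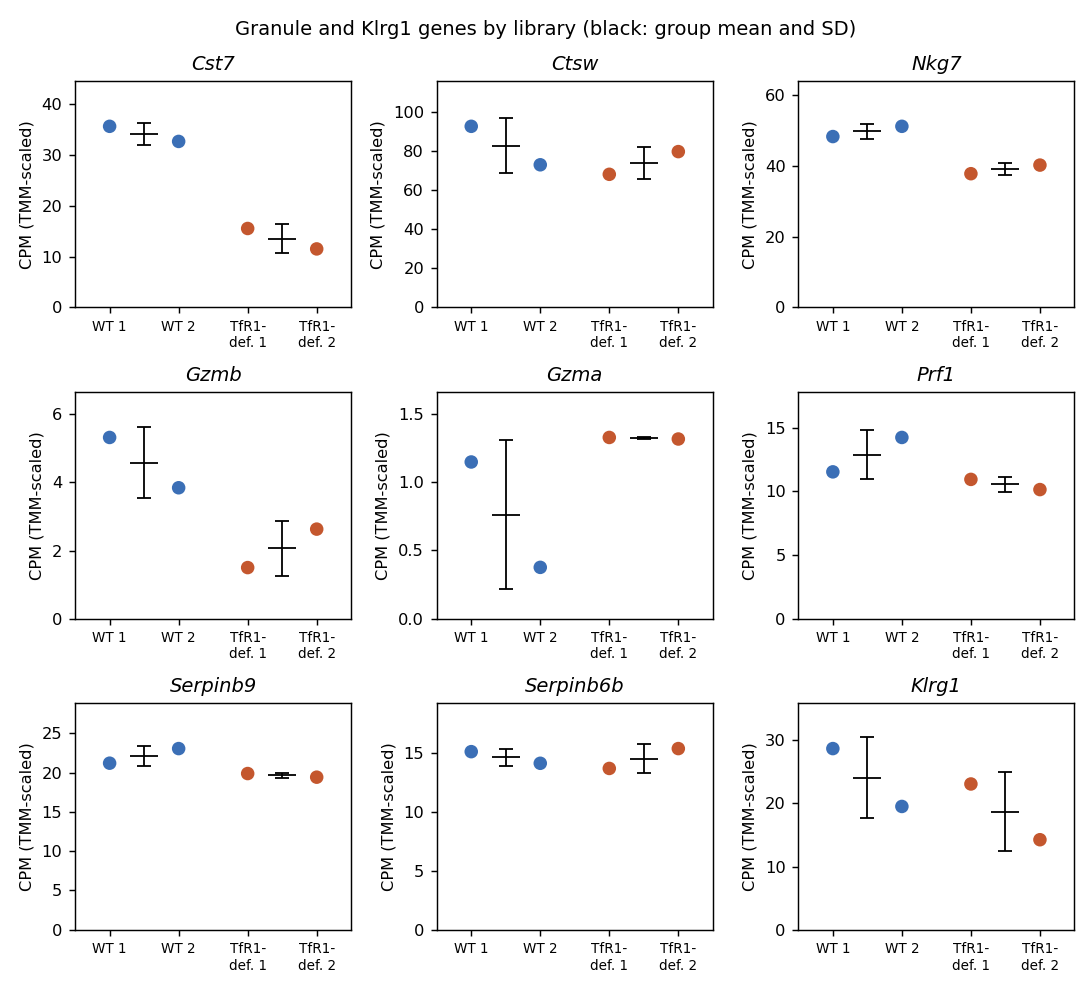
CPM (linear axis from 0, scaled by TMM) of the 9 members in the 4 libraries, WT in blue and TfR1-deficient in orange, with the mean and SD of each genotype in black. Cst7 separates by genotype (32.7 and 35.7 CPM against 11.5 and 15.6 CPM), whereas Klrg1 differs as much between the replicates of one genotype as between genotypes.

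Cst7 encodes cystatin F, an inhibitor of the cathepsins that cut progranzymes into their active form. It was at 35.7 CPM in WT 1, 32.7 CPM in WT 2, 15.6 CPM in TfR1-deficient 1 and 11.5 CPM in TfR1-deficient 2. Both TfR1-deficient libraries lay below both WT libraries, and the gap between the genotypes was wider than either gap within one. The group means were 34.2 ± 2.10 CPM and 13.5 ± 2.85 CPM (SD, n = 2 each), a ratio of 0.396 and a log2 fold change of -1.33 (standard error 0.24, 95% interval -1.95 to -0.72). Its unadjusted p of 0.0024 was the 25th lowest of the 12536 genes, and its adjusted p was 0.911 in edgeR. DESeq2 gave an adjusted p of 0.0056 for it, where 0.285% of the 11563 genes with an adjusted p were called lower. The log2 difference was -1.62 from WT 1 to TfR1-deficient 2 and -1.06 from WT 2 to TfR1-deficient 1. The first pair is that with much macrophage RNA and the second that with little, and its part in the Cst7 level was not tested.

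Ctsw encodes cathepsin W, a papain-like protease found mainly in T and NK cells. It was at 92.8 CPM in WT 1, 73.1 CPM in WT 2, 68.2 CPM in TfR1-deficient 1 and 79.9 CPM in TfR1-deficient 2. The groups overlapped, since TfR1-deficient 2 exceeded WT 2. The log2 fold change was -0.16 (standard error 0.18, 95% interval -0.63 to 0.30, adjusted p = 0.955 in edgeR), and without WT 1 it was 0.04.

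Nkg7 encodes a membrane protein of cytotoxic granules that takes part in their release. It was at 48.4 and 51.3 CPM in WT and at 37.9 and 40.3 CPM in the TfR1-deficient libraries. The replicates were close in each genotype and the groups did not overlap. The fold change was small, -0.35 on the log2 scale (standard error 0.15, 95% interval -0.74 to 0.04), with an unadjusted p of 0.069 and an adjusted p of 0.911 in edgeR. Within the library pairs the log2 difference was -0.26 from WT 1 to TfR1-deficient 2 and -0.44 from WT 2 to TfR1-deficient 1.

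Gzmb encodes granzyme B, the granzyme most often tied to contact-dependent killing by Treg cells. It was at 5.32 CPM in WT 1, 3.84 CPM in WT 2, 1.5 CPM in TfR1-deficient 1 and 2.63 CPM in TfR1-deficient 2, which rest on 65, 41, 26 and 36 counts. Both TfR1-deficient libraries were below both WT libraries, at a ratio of mean CPM of 0.45. The log2 fold change was -1.15 (standard error 0.47, 95% interval -2.36 to 0.05), with an unadjusted p of 0.058 and an adjusted p of 0.911 in edgeR. The nearest libraries of the 2 genotypes were within counting error of each other, with 95% exact Poisson intervals of 2.76 to 5.21 CPM in WT 2 and 1.84 to 3.64 CPM in TfR1-deficient 2. These intervals cover the counting error of reads only and leave out other variation between libraries. No molecular identifiers were counted, so they may understate the counting error of molecules. The log2 difference was -0.98 from WT 1 to TfR1-deficient 2 and -1.28 from WT 2 to TfR1-deficient 1, and the fold change ranged from -1.61 to -0.77 with each library left out, the last being without TfR1-deficient 1 and -0.88 without WT 1.

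Gzma encodes granzyme A, a tryptase of the same granules, and was the lowest of the members. It had 14 counts in WT 1, 4 in WT 2, 23 in TfR1-deficient 1 and 18 in TfR1-deficient 2, or 1.15, 0.37, 1.33 and 1.31 CPM. WT 2 alone was low, and WT 1 lay close to the TfR1-deficient libraries. The log2 fold change was 0.77 (standard error 0.73, 95% interval -1.10 to 2.64, adjusted p = 0.954 in edgeR), and it was 0.20 without WT 2 and 1.81 without WT 1. The exact Poisson intervals, which cover counting error only, were 0.63 to 1.92 CPM in WT 1, 0.10 to 0.96 CPM in WT 2, and 0.84 to 1.99 and 0.78 to 2.08 CPM in the TfR1-deficient libraries.

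Prf1 encodes perforin, the pore-forming protein. It was at 11.5 and 14.2 CPM in WT and at 10.9 and 10.1 CPM in the TfR1-deficient libraries. The groups did not overlap, but the gap between WT 1 and TfR1-deficient 1 was smaller than the gap between the 2 WT libraries. The log2 fold change was -0.29 (standard error 0.27, 95% interval -0.98 to 0.40, adjusted p = 0.954 in edgeR), and it was -0.13 without WT 2 and -0.42 without WT 1.

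Serpinb9, the mouse serpin that inhibits granzyme B and shields the killer cell, was at 21.2 and 23.1 CPM in WT and at 19.9 and 19.4 CPM in the TfR1-deficient libraries. The separation was narrow. The log2 fold change was -0.17 (standard error 0.21, 95% interval -0.70 to 0.35, adjusted p = 0.955 in edgeR). Serpinb6b, another intracellular serpin of the same cluster, was at 15.1, 14.2, 13.7 and 15.4 CPM in WT 1, WT 2, TfR1-deficient 1 and TfR1-deficient 2, so the highest and the lowest level were both in TfR1-deficient libraries. Its log2 fold change was -0.01 (95% interval -0.62 to 0.60), and the sign turned under other scalings and filters. Serpinb6b varied least of the members, by a factor of 1.12 between its highest and lowest library. Close copies of these serpins could share reads, and how such reads were counted is not stated, so the values of Serpinb6b are uncertain to that extent. Serpinb6a was above Serpinb6b in every library, at 25.7 and 21.9 CPM in WT and at 19.4 and 30.7 CPM in the TfR1-deficient libraries, whereas Serpinb6c to Serpinb6e and Serpinb9b to Serpinb9g were each at or below 0.16 CPM.

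Klrg1 was at 28.6 CPM in WT 1, 19.5 CPM in WT 2, 23.1 CPM in TfR1-deficient 1 and 14.2 CPM in TfR1-deficient 2. The library labelled TfR1-deficient 1 exceeded WT 2, so the groups overlapped. Replicate 1 was higher than replicate 2 by 0.55 on the log2 scale in WT and by 0.69 in the libraries labelled TfR1-deficient, and the fold change between the genotypes was smaller, at -0.37 (standard error 0.34, 95% interval -1.24 to 0.50, adjusted p = 0.954 in edgeR). The 2 library pairs went opposite ways, with a log2 difference of -1.0 from WT 1 to TfR1-deficient 2 and of 0.24 from WT 2 to TfR1-deficient 1. The fold change was -0.05 without WT 1 and -0.73 without TfR1-deficient 1.

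**Figure D2:**
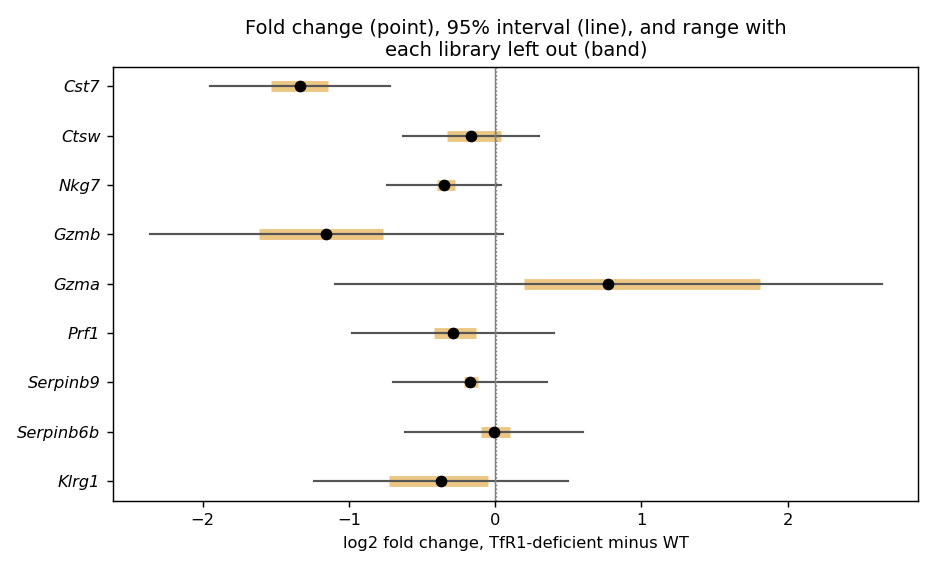
Log2 fold change (TfR1-deficient minus WT) of each member as a point, with its 95% interval from edgeR as a line and the range with each library left out as a band. The dotted line is the median of all tested genes (0.01). Of the 9 intervals, that of Cst7 lies below 0 and the others cross it.

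Per kilobase of exon, which allows levels of different genes to be compared, the WT means were ordered as Ctsw (67.3 CPM per kb), Nkg7 (56.7), Cst7 (34.7), Klrg1 (17.0), Serpinb6b (7.01), Serpinb9 (6.33), Prf1 (6.28), Gzmb (3.23) and Gzma (0.81). The order was the same in the TfR1-deficient means, in which Cst7 stood at 13.7 CPM per kb beside Klrg1 at 13.2 CPM per kb. Gzmb (1.46 CPM per kb) likewise stood beside Gzma (1.41). These neighbours were not separated. In TfR1-deficient 1 Klrg1 (16.3 CPM per kb) exceeded Cst7 (15.8), and Gzma (1.41) exceeded Gzmb (1.06). Ctsw and Nkg7 were not separated in WT, where Ctsw varied from 59.3 to 75.3 CPM per kb and Nkg7 from 55.1 to 58.4 CPM per kb. Serpinb9 (6.07 to 6.60 CPM per kb) and Prf1 (5.62 to 6.94 CPM per kb) overlapped in WT, and Prf1 also overlapped Serpinb6b (6.78 to 7.25 CPM per kb). Even in WT 1, where Gzmb was highest at 3.75 CPM per kb, it was far below Nkg7 at 55.1 CPM per kb. Exon lengths come from GENCODE vM1, an earlier annotation than the one used for counting.

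Taken pair by pair, 7 of 9 members were lower in TfR1-deficient 2 than in WT 1, against 50.5% of tested genes, and 7 of 9 were lower in TfR1-deficient 1 than in WT 2, against 48.8%. The exceptions were Gzma in both pairs, Serpinb6b in the first and Klrg1 in the second. The median log2 difference of the members was -0.22 in the first pair and -0.21 in the second. The part of the macrophage RNA in the members' levels was not otherwise tested.

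**Figure D3:**
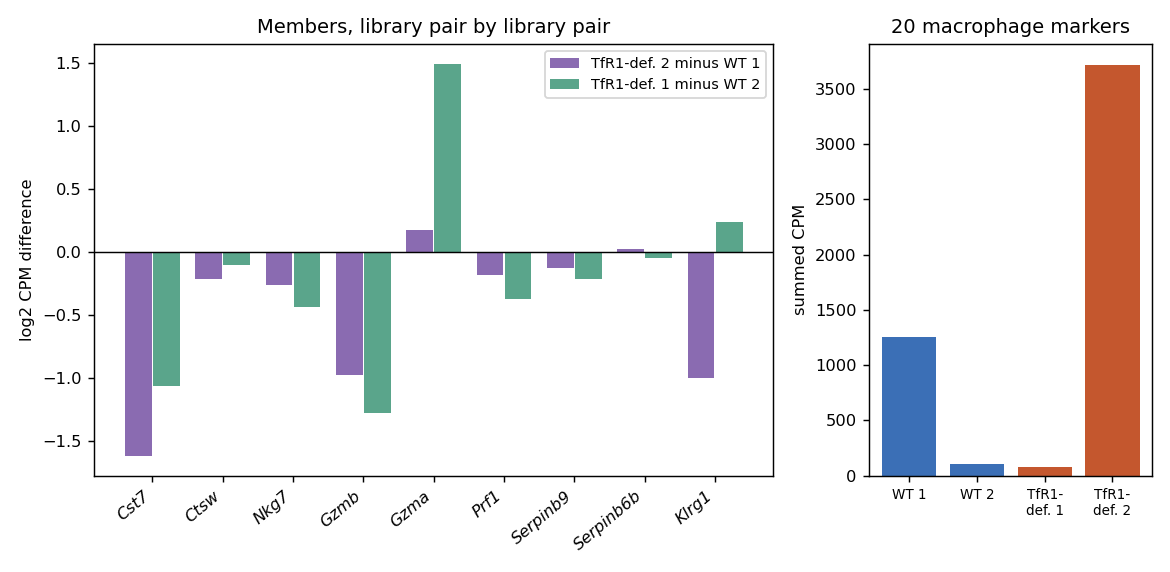
Left, log2 CPM difference of each member between TfR1-deficient 2 and WT 1 (purple) and between TfR1-deficient 1 and WT 2 (green). Right, summed CPM of 20 macrophage markers in the 4 libraries, which is 1255 and 3721 CPM in the libraries of the first pair and 104 and 74.2 CPM in those of the second. Cst7 and Gzmb are lower in both pairs, and Klrg1 only in the first.

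NK and CD8 T cells carry the same granule genes, so their defining markers were read beside the members. Of 10 NK cell markers, Klra4 was at 0 in all libraries, Ncr1, Klre1, Klra8 and Klra9 did not exceed 0.82 CPM, and 5 were tested, with a median log2 fold change of 0.89. Eomes, a transcription factor of NK and effector T cells, was at 1.06 and 1.12 CPM in WT and at 2.25 and 2.41 CPM in the TfR1-deficient libraries, higher with no overlap (unadjusted p = 0.074), and Klrb1c was at 1.78 to 2.85 CPM. Khdc1a was at 0.80 to 3.28 CPM, and the groups overlapped. Gzmc, also on this list, went the other way, lower with no overlap (log2 fold change -0.78). The list summed to 12.9 CPM in WT 1, 9.65 CPM in WT 2, 10.4 CPM in TfR1-deficient 1 and 34.0 CPM in TfR1-deficient 2. The last value was mostly Tyrobp (25.9 CPM), an adaptor that macrophages also express. Among 4 CD8 T cell markers, which summed to 20.5 to 30.4 CPM in WT and 22.6 to 25.5 CPM in the TfR1-deficient libraries, Cd8a was at 0.07 to 0.63 CPM, while Cd8b1 was at 10.8 to 12.3 CPM. The basophil and mast cell list summed to 3.77 and 3.75 CPM in WT and to 7.66 and 5.11 CPM in the TfR1-deficient libraries. Of its genes, Mcpt8, Fcer1a and Ms4a2 did not exceed 0.22 CPM, Cpa3 was at 0.08 and 0.47 CPM in WT and at 0.81 and 0.58 CPM in the TfR1-deficient libraries, and Prss34 was at 1.53 CPM in TfR1-deficient 2 and at 0 in the others. Kit, also listed, was at 2.54 and 2.62 CPM in WT and at 5.47 and 1.53 CPM in the TfR1-deficient libraries, with overlap. Hdc was at 1.06 and 0.56 CPM in WT and at 1.33 and 1.17 CPM in the TfR1-deficient libraries. The part of these cell types in the members' levels was not tested. Of 8 neutrophil markers, 5 were at 0 in every library.

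Apart from Gzmc and Gzmm, the remaining granzymes were at or near 0. Of 8 listed, Gzmd, Gzme, Gzmg and Gzmn were at 0 in all libraries, Gzmf and Gzmk were below 1 CPM, and 2 passed the count filter. Gzmc was at 2.29 and 4.03 CPM in WT and at 2.19 and 1.46 CPM in the TfR1-deficient libraries, with a log2 fold change of -0.78 (unadjusted p = 0.189 in edgeR), and it exceeded Gzmb in WT 2 and in TfR1-deficient 1. Gzmm was at 0.74 and 1.12 CPM in WT and at 2.54 and 0.88 CPM in the TfR1-deficient libraries, so the groups overlapped. Gzmb, Gzmc, Gzmd, Gzme, Gzmf, Gzmg and Gzmn are related genes, and any reads shared between them could affect their counts. How such reads were treated is not given in the sources used here, and their part was not tested.

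At the unadjusted threshold 2.48% of all tested genes were lower and 1.6% higher. No listed gene for filling and releasing granules was called, which in lists this short is near those shares. Of 12 granule loading and processing genes, 11 were tested and 0 were called in either direction, with a median log2 fold change of 0.31. Srgn, which encodes the proteoglycan core on which granzymes are packed, was at 419 and 320 CPM in WT and at 261 and 298 CPM in the TfR1-deficient libraries, with a log2 fold change of -0.40 (unadjusted p = 0.081). Igf2r, the large mannose 6-phosphate receptor that sorts lysosomal enzymes, was at 427 and 507 CPM in WT and at 630 and 528 CPM in the TfR1-deficient libraries (0.31, unadjusted p = 0.123). Ctsb, a lysosomal cathepsin, was at 1195 and 887 CPM in WT and at 810 and 2403 CPM in the TfR1-deficient libraries, the same order of libraries as the summed macrophage markers. Of 13 exocytosis genes 12 were tested, with a median of -0.01 and 0 calls. Unc13d, which primes granules for fusion, was at 229 and 212 CPM in WT and at 181 and 157 CPM in the TfR1-deficient libraries, a log2 fold change of -0.38 that was under the minimum size (unadjusted p = 0.047). Coro1a, an actin regulator, was at 2616 and 1990 CPM in WT and at 1632 and 2062 CPM in the TfR1-deficient libraries (-0.32, unadjusted p = 0.180).

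Of 17 further serpin genes 4 were tested and 0 called, against the same 2.48% and 1.6% of all tested genes. Serpina3g, an inhibitor of cathepsins in activated T cells, was at 60.9 and 63.0 CPM in WT and at 27.5 and 47.7 CPM in the TfR1-deficient libraries, with a log2 fold change of -0.72 (unadjusted p = 0.051). Serpinb1a was at 5.24 and 1.69 CPM in WT and at 0 and 1.53 CPM in the TfR1-deficient libraries (unadjusted p = 0.198). The 6 death ligand and receptor genes were all tested, with a median of -0.34 and 0 calls, against the same shares. Tnfrsf10b, the mouse TRAIL receptor, was at 6.47 and 7.97 CPM in WT and at 4.15 and 4.45 CPM in the TfR1-deficient libraries (-0.74, unadjusted p = 0.072). Tnf was at 4.17 and 4.69 CPM in WT and at 3.23 and 2.63 CPM in the TfR1-deficient libraries (-0.59, unadjusted p = 0.171).

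Klrg1 was far above the other killer lectin-like receptor genes, which reached at most 5.91 CPM in any library. Of 22 others 3 were tested and 1, Klrb1f, was lower at the unadjusted threshold, against 2.48% of all tested genes. Klrb1f was at 3.52 and 1.97 CPM in WT and at 0.86 and 0.29 CPM in the TfR1-deficient libraries (a log2 fold change of -2.21, unadjusted p = 0.028 in edgeR). Klrk1, which encodes NKG2D, was the highest of them, at 5.91 CPM in TfR1-deficient 2, and between 0.75 and 1.80 CPM in the other libraries.

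Among surface and secreted genes of terminally differentiated effector cells, those lower in the TfR1-deficient libraries included an integrin chain and suppressive mediators. Of 30 listed 25 were tested, 10 were lower and 0 higher at the unadjusted threshold, against 2.48% and 1.6% of all tested genes, and the median log2 fold change was -0.65. Il10, an inhibitory cytokine, was at 12.0 and 5.53 CPM in WT and at 1.21 and 1.17 CPM in the TfR1-deficient libraries (a log2 fold change of -2.88, unadjusted p = 0.0024). Itgae, the integrin chain CD103, was at 59.1 and 47.1 CPM in WT and at 18.3 and 10.6 CPM in the TfR1-deficient libraries (-1.87, unadjusted p = 0.0019). Fgl2, a secreted suppressive mediator, was at 23.9 and 23.5 CPM in WT and at 7.38 and 7.01 CPM in the TfR1-deficient libraries (-1.72, unadjusted p = 0.0007). Each of these 3 genes separated the genotypes with no overlap, as Cst7 did. This list, like those below, was chosen with earlier results of these data known, so its share of lower genes tests nothing. Whether this list and the members differed was not tested.

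Among 23 transcription factors of cytotoxic and effector cells 22 were tested, 2 were lower and 0 higher at the unadjusted threshold, against 2.48% and 1.6% of all tested genes, with a median of -0.07. Bhlhe40, a repressor of Il10 in helper T cells, was at 157 and 188 CPM in WT and at 78.0 and 45.2 CPM in the TfR1-deficient libraries (-1.49, unadjusted p = 0.0035). Irf4, needed for effector Treg differentiation, was at 61.4 and 29.9 CPM in WT and at 21.3 and 25.2 CPM in the TfR1-deficient libraries (-0.98, unadjusted p = 0.045). Among the 10 cytokine receptor genes that feed into granule gene expression, all tested, 2 were lower and 0 higher, against the same 2.48% and 1.6%, with a median of -0.29. Il12rb1, the shared receptor chain for IL-12 and IL-23, was at 45.3 and 32.5 CPM in WT and at 20.1 and 17.4 CPM in the TfR1-deficient libraries (-1.05, unadjusted p = 0.0072). Il18r1, the ligand-binding chain for IL-18, was at 27.3 and 24.0 CPM in WT and at 12.6 and 15.3 CPM in the TfR1-deficient libraries (-0.88, unadjusted p = 0.013). No gene of these lists passed the adjusted threshold in edgeR.

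**Figure D4:**
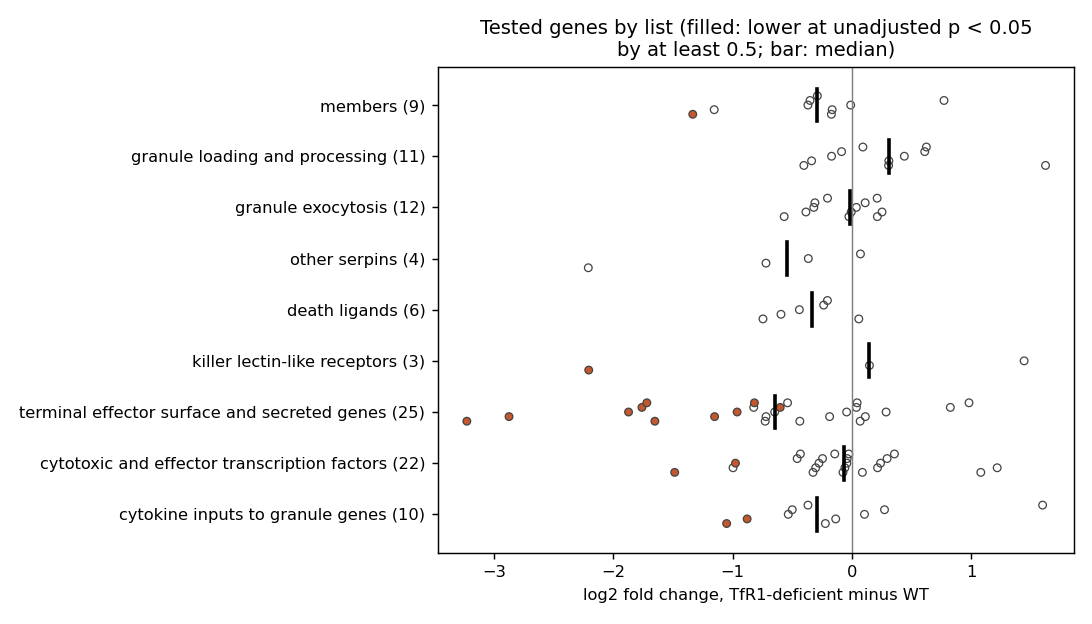
Log2 fold change (TfR1-deficient minus WT) of the tested genes of 9 lists, with the number tested in parentheses, filled where lower at an unadjusted p under 0.05 by at least 0.5, and a bar at each median. The member list has 1 filled point (Cst7) and a median of -0.29, and the terminal effector list has 10 filled points and a median of -0.65.

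Among 3398 genes whose log2 CPM ranged by at least 1 over the 4 libraries, the profiles most like that of Gzmb, by the root mean square distance of centred log2 CPM, were those of Nt5e, Gpm6b and Gm8399 (distances of 0.03, 0.03 and 0.07 log2 units). Nt5e, which encodes the ectonucleotidase CD73, was at 605 and 457 CPM in WT and at 192 and 315 CPM in the TfR1-deficient libraries. The nearest to Klrg1 were Gm12248, Serinc5 and Capn5 (0.02, 0.05 and 0.05 log2 units). Gm12248 (0.44 to 1.06 CPM) and, for Gzmb, Gm8399 (0.23 to 1.15 CPM) were at levels as low as Gzma, so their distances are uncertain. Serinc5 was at 45.1 and 32.2 CPM in WT and at 35.0 and 21.4 CPM in the TfR1-deficient libraries, higher in replicate 1 of each genotype as Klrg1 was. With 4 libraries such likeness describes these samples only.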

How the data were processed

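Sorted Treg cells gave 4 RNA libraries, assigned to genotype and replicate by their labels. The authors deposited raw read counts, 1 row per Ensembl gene, without normalization or pooling. The submitters' processing notes name Trim Galore 0.6.7, STAR 2.7.9a, featureCounts and mm10, whereas the methods text gives mm9 with STAR. Of the identifiers, 14930 of 47729 are not in GENCODE vM1, the mm9 annotation at hand, so a later annotation was counted. Its release, the strand and the handling of reads with several positions are not given in the sources used here. Symbols were found for 32799 identifiers, and those without one held 0.907% of counts.

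After filterByExpr and TMM scaling, 12536 genes went into edgeR's quasi-likelihood test (edgeR 4.0.16, R 4.3.3) on genotype alone, and p-values were adjusted by Benjamini-Hochberg over all of them. An exact permutation test of 2 against 2 libraries cannot go below p = 0.333, so none was used. CPM were TMM-scaled, and the pair differences and profiles use log2 CPM with a prior count of 2. Alternatives were DESeq2 1.42.0, other scalings and filters, a replicate block and the omission of each library. The fits were checked on simulated counts. Depth was 12365708, 10841939, 17278448 and 13454577 counts in WT 1, WT 2, TfR1-deficient 1 and TfR1-deficient 2, and the spread between libraries (common biological coefficient of variation 0.323) limits most genes more than counting error.

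The members and lists were chosen with earlier results of these data known. All members are named. A rule was applied to each other list, except those of cell type and proliferation markers. Up to 4 genes per direction past an unadjusted p of 0.05 and a log2 fold change of 0.5 were named. Otherwise the 2 with the lowest p were named. The 3 profiles nearest to Gzmb and Klrg1 are also named. Other genes named (the listed relatives of granzymes and serpins, Ctsb, Klrk1, Ctla4 and the cell type markers) were chosen after their values were seen. One listed gene, Vamp7, was not matched. One gene that this rule names is not reported here. Gene positions and promoters are those of RefSeq on GRCm38.p6. B cell (1111 to 1580 CPM summed, mostly Ighm) and plasmacytoid dendritic cell markers (143 to 165 CPM) did not separate the genotypes by more than the spread between replicates.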

Additional observations from a re-analysis of the deposited data

How the results depend on the processing

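Cst7 was lower with an unadjusted p under 0.05 in each alternative that gives a test, including with each library left out (log2 fold change -1.53 to -1.14), and its adjusted p was under 0.05 with DESeq2 (0.0056) and without the filter (0.0019) but not with the other scalings, the stricter filter, the replicate block or any library left out. The unadjusted p of Gzmb went under 0.05 without the filter (0.042) and with at least 10 counts in every library (0.046). Of 107 single-gene values under the alternatives, 97 kept the sign of the main value and 10 did not, which were 8 of Serpinb6b, 1 of Ctsw (without WT 1) and 1 of Klrg1 (0.24 for WT 2 with TfR1-deficient 1). Serpinb6b turned to 0.0051 with DESeq2 size factors, 0.028 with total library size, 0.0029 without the filter, 0.013 with at least 10 counts in every library and 0.0041 with DESeq2, and ranged from -0.10 to 0.10 with each library left out. Ctsw ranged from -0.33 to 0.037 with each library left out, the sign turning without WT 1. The members' median ranged from -0.31 to -0.21 with each library left out, and was -0.22 for WT 1 with TfR1-deficient 2 and -0.21 for WT 2 with TfR1-deficient 1, pairs chosen after seeing the data. With a library left out the criterion of no overlap is looser. The share of all tested genes under it was not computed, so no count of members is given.

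Over all genes, the numbers lower and higher at the unadjusted threshold were 311 and 200. With each library left out they ranged from 131 (without WT 1) to 382 and from 169 to 353 (without TfR1-deficient 1), and 0 passed the adjusted threshold. Without the filter 650 genes were higher and 262 passed the adjusted threshold, with total degrees of freedom (prior plus residual) of 44736 against 5.16. DESeq2 passed 39. With a replicate block 141 genes were lower and 70 higher, and no member's adjusted call changed. Same-numbered libraries did not deviate together (correlation -0.61), so the numbers were not taken as pairs. Pairing the numbers crosswise, an alternative added after the data were seen, gave 519 lower, 596 higher and 439 at the adjusted threshold. The causes of these shifts were not tested. The members' values under the crosswise pairing are not reported here. Gzma could not be tested with at least 10 counts in every library and had no adjusted p in DESeq2. Depth limits Gzma (4 to 23 counts) and, less so, Gzmb (26 to 65).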
